A study of Homo sapiens with 12 samples.

Results

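KISS1, the gene of kisspeptin, rose within 6 h of PMA/Ionomycin stimulation in wild-type (WT) MDA-MB-231 cells, was higher still at 24 h, and stayed at lower levels in cells that lack part of the ETS1 promoter (ΔCRE cells). It is 1 gene of the 24331 features in the table of expression values. KISS1 was chosen by its measured values, because at 24 h its ΔCRE level was below the WT level. Every comparison of KISS1 between groups that include 24 h is therefore given as a description, with no test. The rule uses no 0 or 6 h value, but KISS1 was picked with earlier results of these data known, so the p-values at 0 and 6 h are not those of a gene taken blindly. All libraries came from MDA-MB-231, a human breast cancer cell line. The 6 groups were WT and ΔCRE cells at 0, 6 and 24 h of PMA (a phorbol ester that activates protein kinase C) with Ionomycin (a calcium ionophore), with 2 libraries each and 12 in all, and the 0 h cells were mock treated. The ΔCRE cells carried a deletion in the core regulatory element of the ETS1 promoter. It was made by transient transfection of Cas9 with a pair of guide RNAs, and WT cells were the unedited line. How many clones stand behind the ΔCRE libraries is not given in the sources used here, so the deletion and a clone cannot be told apart. The replicates are described as biological, but no source says that they came from separate cultures, so p-values measure the spread between these libraries, which may be technical.

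KISS1 encodes a secreted precursor that is cut by proprotein convertases and amidated at its end to give the kisspeptins, a family of RFamide peptides. They act on KISS1R (GPR54), a receptor that couples through Gq to phospholipase C, calcium release and protein kinase C. The gene was first found as a suppressor of metastasis in melanoma cells, and in the hypothalamus kisspeptin drives the release of gonadotropin-releasing hormone.

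KISS1 lies on the minus strand of chromosome 1 at chr1:204159469-204165619 (hg19), with 1 annotated transcript of 714 bases in 3 exons at chr1:204165504-204165619, chr1:204161902-204162042 and chr1:204159469-204159925. The coding sequence starts in the second exon and ends in the third, so the first exon is wholly 5′ untranslated. The 250 bases before the start of the gene are shown because the cells differ in the promoter of an ETS factor, whose DNA-binding domain recognises a GGAA core. They lie at chr1:204165620-204165869 in hg19, are read here 5′ to 3′ on the minus strand, and are credited to RefSeq (GRCh38.p14 table), whose bases matched GRCh37 at 1 place on chromosome 1. Capitals mark every match, on either strand, to the motifs searched:
KISS1 promoter: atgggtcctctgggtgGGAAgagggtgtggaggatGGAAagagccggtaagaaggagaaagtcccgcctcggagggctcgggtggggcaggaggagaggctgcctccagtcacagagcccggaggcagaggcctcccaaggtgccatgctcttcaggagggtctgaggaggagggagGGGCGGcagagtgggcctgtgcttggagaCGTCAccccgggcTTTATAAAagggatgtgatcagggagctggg
The motifs were the ETS core GGAA, the SP1 box GGGCGG, the CREB half-site TGACG, the TATA box TATAAA, the AP-1 site TGANTCA and the AP-2 site GCCNNNGGC. GGAA occurred at 2 places, starting 234 and 215 bases before the gene, and 92.7% of the 35116 promoters in the table hold it in the same window. GGGCGG occurred 73 bases before the gene (in 42.6% of promoters). TGACG occurred on the opposite strand 44 bases before it (in 21.2%). TATAAA occurred 29 bases before the gene and overlapped a match on the other strand (in 10.7%). No match to TGANTCA (in 6.57% of promoters) or GCCNNNGGC (in 19.8%) was found in this window. A match of letters is no evidence of binding, and GGAA is too common to set this promoter apart.

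Expression is given as FPKM, fragment counts scaled by transcript length and library size, in the form the authors deposited. In WT cells KISS1 was 3.22 and 3.37 FPKM at 0 h, 13.3 and 13.7 FPKM at 6 h, and 45.9 and 43.2 FPKM at 24 h. The replicates lay close together and the time points did not overlap. The WT mean at 0 h was 3.29 FPKM ± 0.107 (SD, n = 2). By 6 h the mean had reached 13.5 FPKM ± 0.321 (SD, n = 2), which is 4.10-fold the 0 h level, and the 24 h mean of 44.6 FPKM ± 1.92 (SD, n = 2) was 13.5-fold. Among the 11256 features tested, KISS1 moved from above 19.1% and 19.4% of features in the WT 0 h libraries to above 82.6% and 81.8% in the WT 24 h libraries.

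In ΔCRE cells KISS1 was 1.66 FPKM in replicate 2 at 0 h, 4.56 and 5.36 FPKM at 6 h, and 10.6 and 8.43 FPKM at 24 h. The library labelled ΔCRE 0 h replicate 1 had 2.68 FPKM and is shown apart, because its expression profile differs from all others. For ΔCRE cells the 6 h mean was 4.96 FPKM ± 0.566 (SD, n = 2), and the 24 h mean was 9.54 FPKM ± 1.57 (SD, n = 2). Against replicate 2 at 0 h these were 2.99-fold and 5.75-fold. KISS1 thus also rose in ΔCRE cells, and every ΔCRE library lay below both WT libraries of its time point. The ΔCRE mean was 50.3% of the WT mean at 0 h (1 ΔCRE library), 36.8% at 6 h and 21.4% at 24 h.

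**Figure D1:**
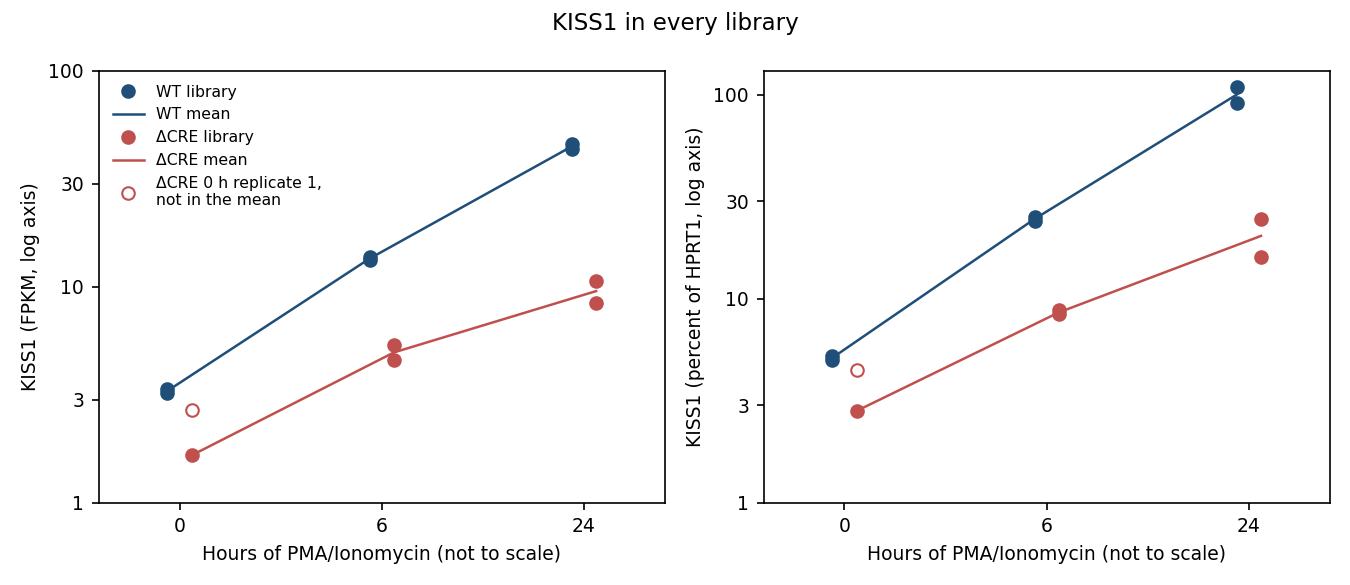
KISS1 in each library by hours of PMA/Ionomycin, in FPKM (left, log axis) and as a percentage of HPRT1 FPKM in the same library (right, log axis). Points are libraries, lines join group means, and the open point is ΔCRE 0 h replicate 1, which enters no mean. ΔCRE libraries lie below WT libraries at each time point, and ΔCRE cells at 24 h (8.43 and 10.6 FPKM) remain below WT cells at 6 h (13.3 and 13.7 FPKM).

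From the lowest to the highest mean the order of the 6 groups was ΔCRE 0 h, WT 0 h, ΔCRE 6 h, ΔCRE 24 h, WT 6 h and WT 24 h. No neighbouring groups in this order overlapped. The ΔCRE mean at 24 h was 70.7% of the WT mean at 6 h. The 24 h level was 3.30-fold the 6 h level in WT cells and 1.92-fold in ΔCRE cells. The pooled SD of replicates was 0.12 on the log2(FPKM + 1) scale over 5 pairs, and all differences below are larger than that.

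The 0 and 6 h libraries were compared with limma's moderated test on log2(FPKM + 1), in 1 model of 6 groups and 11 libraries (without ΔCRE 0 h replicate 1), with Benjamini-Hochberg adjustment over the 11256 features with a mean of at least 1 FPKM. In WT cells KISS1 rose by 1.75 on the log2 scale from 0 to 6 h (95% interval 1.51 to 1.996, adjusted p = 5.3e-06, limma). Of all features tested, 23.3% rose in this comparison. In ΔCRE cells it rose by 1.16 (95% interval 0.87 to 1.46, adjusted p = 0.00031, limma, with 1 library at 0 h), where 16.8% of all features rose. The rise in ΔCRE cells was smaller than in WT cells by 0.59 (95% interval of the difference −0.97 to −0.21), but with an adjusted p of 0.356 in limma this difference did not pass, and the comparison was added after the values were seen.

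At 6 h, KISS1 in ΔCRE cells was below WT cells on the log2 scale (difference −1.28, 95% interval −1.53 to −1.04, adjusted p = 0.0003, limma). By the same rule 6.22% of all features were lower in ΔCRE cells at 6 h, and the difference of KISS1 was the 59th lowest of 11256. At 0 h the difference was −0.69 (95% interval −0.99 to −0.40, adjusted p = 0.0406, limma), where 1.03% of features were lower. The 0 h call rests on 1 ΔCRE library, which is assumed to vary like the other groups. Without any 1 of the WT or ΔCRE 6 h libraries the 0 h call was lost (8 of 10 such fits, adjusted p between 0.0509 and 0.137, limma), as it was with no filter on low values (0.0738). With all 12 libraries the 0 h difference was −0.46 (adjusted p = 0.272, limma) and did not pass, whereas the 6 h call and the WT rise did. In an exact permutation test of genotype within 0 and 6 h, two-sided, the mean difference of −0.99 had p = 0.0556, the smallest that the 18 arrangements allow.

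As a description, the 24 h difference of KISS1 between ΔCRE and WT cells was −2.12 on the log2 scale, the 18th lowest of 11256 features. Of all features 3.97% were lower in ΔCRE cells at 24 h with an adjusted p under 0.05 (limma), a test not given for KISS1 at 24 h. From 0 to 24 h the difference was 3.41 in WT cells, the 16th highest of the features tested, and 1.98 in ΔCRE cells, the 82nd highest. In WT cells 26.5% of features rose over this time with an adjusted p under 0.05 (limma). The rule behind KISS1 set a direction at 24 h and no threshold, so no values lie just outside it.

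**Figure D2:**
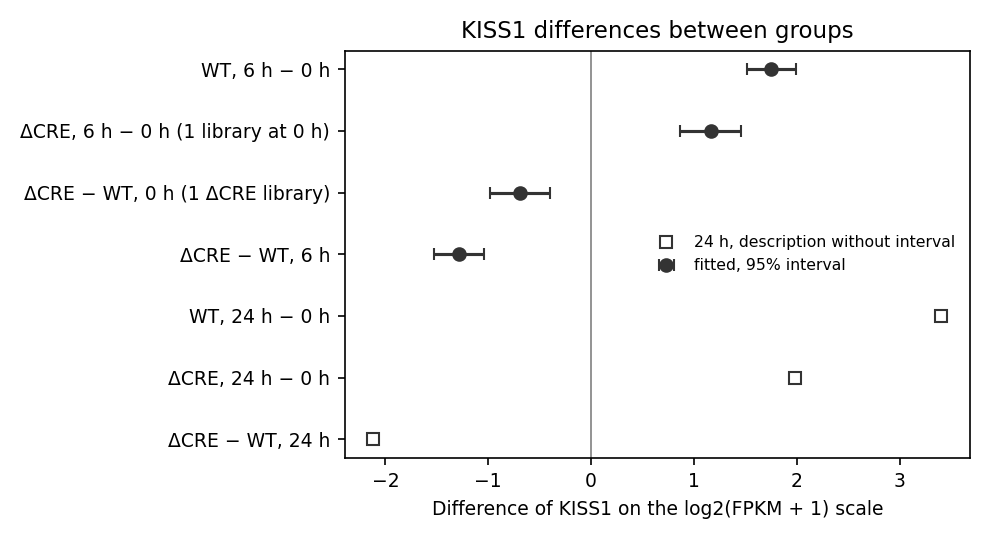
Differences of KISS1 between groups on the log2(FPKM + 1) scale. Filled points are fitted differences with 95% intervals for the 0 and 6 h libraries (limma, 11 libraries). Open squares are differences of means that use 24 h libraries, given without interval or test. The rise from 0 to 6 h was 1.75 in WT and 1.16 in ΔCRE cells, and the differences of ΔCRE from WT cells were −0.69, −1.28 and −2.12 at 0, 6 and 24 h.

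The depth behind these values is known only roughly. The smallest step of FPKM times length in single-transcript features gave between 11980000 and 19690000 fragments per library. On that footing KISS1 rests on about 37.7 and 38.2 fragments in the WT 0 h libraries, 22.7 in ΔCRE 0 h replicate 2, and between 39.0 and 573.5 at 6 and 24 h. Counting error alone is then 21.0% of the value in ΔCRE 0 h replicate 2 and 4.18% in WT 24 h replicate 1, and covers counting error only. The full 714 bases of the transcript were used. If the deposited values were scaled by a shorter length, the fragments would be fewer and the counting error larger. In these bulk libraries fewer cells with KISS1 RNA and less KISS1 RNA per cell cannot be told apart.

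HPRT1, a housekeeping enzyme of purine salvage that the study used to normalise qRT-PCR, fell in WT cells by 0.51 on the log2 scale from 0 to 24 h (adjusted p = 0.0042, limma), where 28.2% of all features fell. In WT cells KISS1 was 5.14% ± 0.163 (SD, n = 2) of HPRT1 without stimulation, 24.6% ± 0.785 (SD, n = 2) after 6 h and 100.2% ± 13.2 (SD, n = 2) after 24 h. For ΔCRE cells the same ratio was 2.82% in replicate 2 without stimulation, 8.58% ± 0.278 (SD, n = 2) after 6 h and 20.3% ± 6.14 (SD, n = 2) after 24 h. The ratio in ΔCRE cells was 54.9%, 34.8% and 20.3% of that in WT cells at the 3 time points, near the shares that FPKM gave.

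The targeted gene, ETS1, checked the labels. It was 24.0 and 23.7 FPKM at 0 h, 139.2 and 145.2 FPKM at 6 h and 36.2 and 39.7 FPKM at 24 h in WT cells, and 16.5 FPKM at 0 h (replicate 2), 62.8 and 62.2 FPKM at 6 h and 29.3 and 30.7 FPKM at 24 h in ΔCRE cells. It was lower in ΔCRE cells at each time point (adjusted p from limma, 0.0132 at 0 h, 2.0e-05 at 6 h and 0.0153 at 24 h), but with all 12 libraries the 6 and 24 h calls were lost (adjusted p = 0.682 and 1.0). The 24 h call of ETS1 was lost without WT 24 h replicate 2 (adjusted p = 0.102, limma), ΔCRE 24 h replicate 1 (0.0919) or replicate 2 (0.0667). The ETS1 differences at 6 h (−1.17) and 24 h (−0.33) were the same with 11 and with 12 libraries, so only their tests changed. ETS1 was highest at 6 h in both genotypes, whereas KISS1 was highest at 24 h. In 11 libraries the markers of MDA-MB-231 cells (VIM, CD44, AXL, CAV1) summed to between 1814 and 3119 FPKM, and the luminal breast markers (ESR1, PGR, GATA3, FOXA1) to between 2.42 and 4.62 FPKM, with ESR1 and PGR at or near 0. The gut epithelium markers (CDX2, VIL1, CDH17, LGALS4, PHGR1, EPCAM) summed to between 2.12 and 3.39 FPKM there and to 3426 FPKM in ΔCRE 0 h replicate 1. The MDA-MB-231 markers were also present in ΔCRE 0 h replicate 1, with a sum of 1440 FPKM, and ETS1 was 5.08 FPKM. In that library the sum of all FPKM was 1.42333e+06, against 566255 to 651080 in the others. Because of this sum, KISS1 in the 2 ΔCRE 0 h libraries changed order when values were rescaled to the same sum (TPM), to 1.88 TPM in replicate 1 and 2.87 TPM in replicate 2, against 5.37 and 5.95 TPM in WT cells at 0 h.

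Of the neighbours of KISS1 with a mean of at least 0.5 FPKM, PLEKHA6, which encodes a protein with a pleckstrin homology domain, was the one whose ΔCRE level lay well below WT. Of 18 other features within 500 kb of KISS1, 9 were tested, and none passed for ΔCRE against WT cells at 0, 6 or 24 h (limma, adjusted p of at least 0.123, 0.158 and 0.256). At an unadjusted p under 0.05 there was 1 at 0 h, 1 at 6 h and 0 at 24 h. Of all features 6.22% were lower and 3.62% higher at 6 h, and 3.97% and 2.35% at 24 h (adjusted p under 0.05, limma). With 9 features, no call is near those shares. The share of all features at an unadjusted p under 0.05 is not reported here. The differences of these 9 features lay between −0.15 and 0.31 at 0 h, −0.10 and 0.37 at 6 h, and 0.04 and 0.34 at 24 h. They included SOX13, a transcription factor, ETNK2, an ethanolamine kinase, and MDM4, an inhibitor of p53. The 65 tested features of the stretch from 200 to 210 Mb of chromosome 1, KISS1 among them, had a median difference of 0.05 at 6 h and 0.12 at 24 h, against 0.01 over all features at both times.

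GOLT1A, the nearest gene upstream, whose product acts in transport between the endoplasmic reticulum and the Golgi, was listed at 0 in 10 of 11 libraries and at 0.0852 FPKM in WT 0 h replicate 2, but at 35.7 FPKM in ΔCRE 0 h replicate 1. PLEKHA6, the next gene, was 0.836 and 0.840 FPKM at 0 h, 1.56 and 1.304 FPKM at 6 h and 1.33 and 1.31 FPKM at 24 h in WT cells. In ΔCRE cells it was 0.326 FPKM at 0 h (replicate 2), 0.669 and 0.567 FPKM at 6 h and 0.511 and 0.569 FPKM at 24 h, so the genotypes did not overlap. Its ΔCRE mean was 39.0%, 43.2% and 40.8% of the WT mean at 0, 6 and 24 h. PLEKHA6 had a mean under 1 FPKM and was not in the main test. Without that filter it was lower in ΔCRE cells at 6 h (difference −0.59, adjusted p = 0.0052, limma, where 3.8% of 17700 features were lower) and at 24 h (−0.59, adjusted p = 0.0057, where 2.68% were lower). In ΔCRE 0 h replicate 1 it was 5.08 FPKM.

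**Figure D3:**
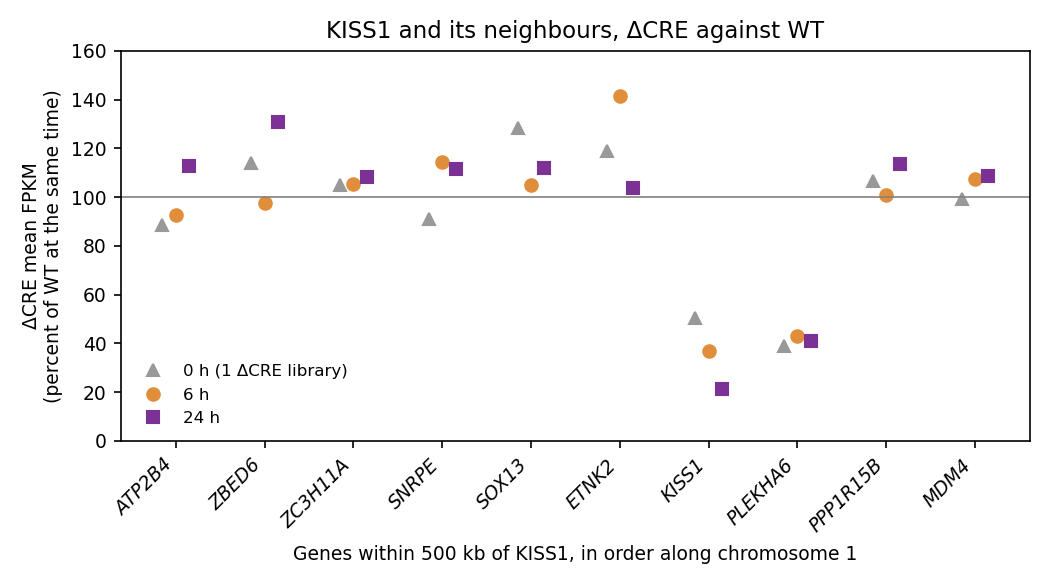
Mean FPKM in ΔCRE cells as a percentage of WT cells at the same time point, for KISS1 and the features within 500 kb with a mean of at least 0.5 FPKM over 11 libraries (SNORA77 left out, listed at 0 in several groups), in order along chromosome 1. Symbols stand for 0, 6 and 24 h. KISS1 lay at 50.3%, 36.8% and 21.4%, PLEKHA6 stayed between 39.0% and 43.2%, and the others lay between 88.6% and 141.5%.

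The genes with the time and genotype course most like that of KISS1 over 11 libraries were C17orf103 (Pearson's r 0.972), CTNS (0.971), CST4 (0.971), SLC27A4 (0.966), MINK1 (0.965) and MMP14 (0.962), out of 11255 features compared. These r describe 11 libraries that share the 6 groups, so they are no independent points. CTNS is a lysosomal cystine transporter, CST4 a secreted inhibitor of cysteine proteases, SLC27A4 a fatty acid transport protein, MINK1 a kinase of the JNK pathway and MMP14 a membrane-bound matrix metalloproteinase.

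Among these genes CST4 came nearest to KISS1 in the size of its rise in WT cells (9.82-fold from 0 to 24 h, against 13.5-fold). It was 1.75 and 4.42 FPKM at 0 h, 11.95 and 11.8 FPKM at 6 h and 30.8 and 29.9 FPKM at 24 h in WT cells. In ΔCRE cells it was 0.708 FPKM at 0 h (replicate 2), 3.68 and 3.89 FPKM at 6 h and 10.4 and 9.82 FPKM at 24 h. Its ΔCRE mean was 22.9% of WT at 0 h (1 ΔCRE library), 31.9% at 6 h and 33.4% at 24 h, whereas the share of KISS1 fell with time. From 0 to 24 h CST4 rose 14.3-fold in ΔCRE cells, more than in WT cells, whereas KISS1 rose less there (5.75-fold). Among these 11 libraries the genotypes did not overlap at any time point, although the WT 0 h replicates of CST4 lay far apart. In ΔCRE 0 h replicate 1 CST4 was 2.57 FPKM, between the WT 0 h values.

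The group means of CTNS and SLC27A4 followed the same order as those of KISS1 with smaller steps. For MINK1 the ΔCRE 6 h mean (15.05 FPKM) lay below the WT 0 h mean (16.1 FPKM), and the other groups kept that order. CTNS was 79.1% of WT in ΔCRE cells at 24 h, SLC27A4 76.1% and MINK1 72.0%. CTNS and MINK1 lie in the first 10 Mb of chromosome 17, where the median difference of 130 tested features was −0.23 at 6 h and −0.27 at 24 h. SLC27A4 lies at 130 to 140 Mb of chromosome 9, where the median of 140 features was −0.25 at 6 h and −0.28 at 24 h. The medians of both stretches lay below 0 and that of the KISS1 stretch above 0, and their part in these likenesses was not tested. C17orf103 was low throughout, with 2.32 and 2.002 FPKM in WT and 1.18 and 1.24 FPKM in ΔCRE cells at 24 h. At 0 and 6 h it lay between 0.331 and 1.12 FPKM in the fitted libraries. It thus reached the filter of a mean of 1 FPKM with the help of its WT 24 h values. KISS1 is also highest in that group, so the rank of C17orf103 is not free of the filter.

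The most opposite courses were those of F2RL1 (r −0.977), UBASH3B (−0.967) and ANXA1 (−0.964). F2RL1, a receptor cleaved by trypsin-like proteases, was 170.0 and 174.8 FPKM at 0 h and 55.7 and 58.4 FPKM at 24 h in WT cells, and 217.3 FPKM at 0 h (replicate 2) and 92.8 and 92.9 FPKM at 24 h in ΔCRE cells. Its level was lower at 24 h than at 0 h in both genotypes, and its ΔCRE mean was 164.4% of WT at 6 h and 162.7% at 24 h. UBASH3B, a phosphatase that acts on tyrosine kinases, was 125.1% of WT at 6 h and 123.7% at 24 h. ANXA1, a calcium-dependent phospholipid-binding protein, was 111.1% of WT at 6 h and 123.0% at 24 h. With ΔCRE 0 h replicate 1 included, 3 of the 6 most similar genes stayed among the leading 6 (C17orf103, CST4 and MMP14).

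**Figure D4:**
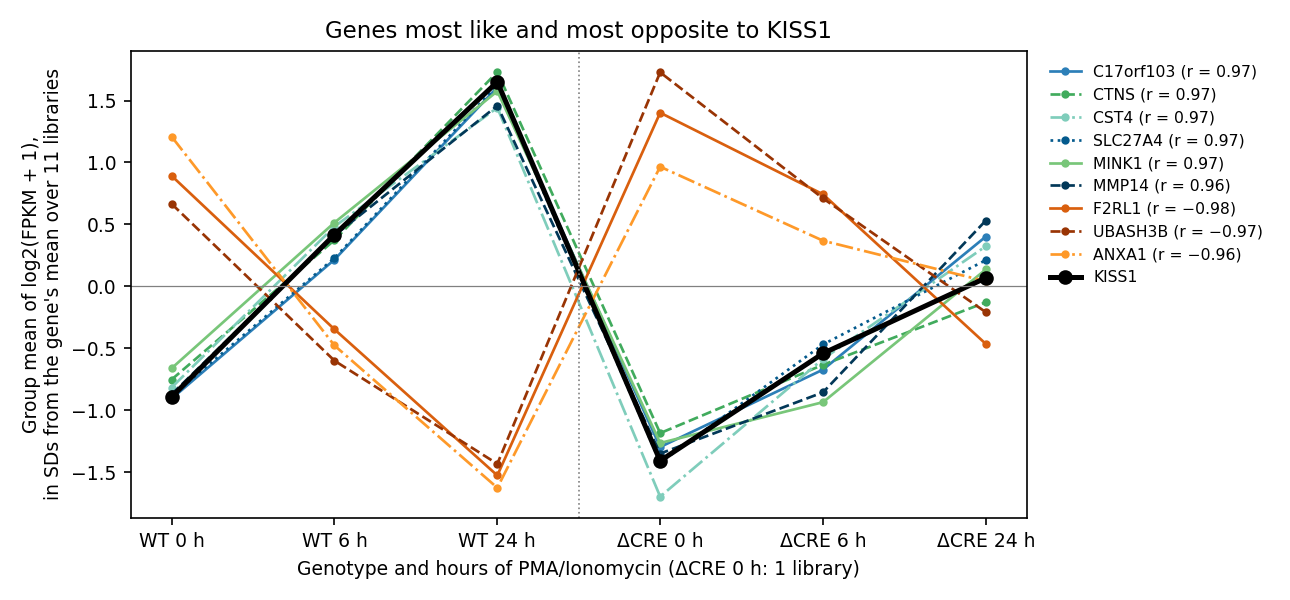
Group means of log2(FPKM + 1) for KISS1 (black), the 6 most similar and the 3 most opposite features, each in SDs from the gene's own mean over 11 libraries, so that shape and not level is compared. The horizontal axis gives genotype and hours, and lines only join the groups. The 6 similar genes rise with KISS1 in both genotypes and stay lower in ΔCRE cells, and F2RL1, UBASH3B and ANXA1 fall.

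KISS1R, the kisspeptin receptor, was listed at 0 FPKM in all 12 libraries. Of the 9 genes of the receptor and of other RFamide peptides and receptors, 5 were listed at 0 throughout and 1 was tested, NPFF, a neuropeptide precursor, which was between 1.17 and 3.07 FPKM in 11 libraries and passed in no comparison (limma, 0 at an unadjusted p under 0.05). A gene listed at 0 FPKM may be a failed estimate, so this does not show that the receptor is absent.

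Of 14 genes of precursor processing and peptide cleavage 9 were tested, and 1 of them, MMP14, was lower in ΔCRE cells at 6 h and at 24 h, where 6.22% and 3.97% of all features were lower. The untested 5 included MMP2, MMP9 and MMP16. MMP14 is a metalloproteinase known to cleave kisspeptin. The WT libraries held 31.5 and 27.5 FPKM at 0 h, 66.6 and 62.6 FPKM at 6 h and 125.8 and 117.8 FPKM at 24 h. The ΔCRE libraries held 21.9 FPKM at 0 h (replicate 2), 29.7 and 29.8 FPKM at 6 h and 72.7 and 66.5 FPKM at 24 h. The genotypes did not overlap at any time point among these libraries, with ΔCRE means at 46.1% of WT at 6 h (difference −1.09, adjusted p = 0.00014, limma) and 57.1% at 24 h (−0.80, with an adjusted p of 0.0012). The median difference of the 9 tested genes was −0.01 at 6 h and 0.01 at 24 h, against 0.01 over all features.

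Calls over time in WT cells were common, since 23.3% of all features rose and 21.1% fell by 6 h, and 26.5% rose and 28.2% fell by 24 h. They also depended on the libraries fitted. Of the calls in WT cells on the 5 gene lists described here, 24 at 6 h and 28 at 24 h, 3 and 7 passed when ΔCRE 0 h replicate 1 was included (limma, 12 libraries). Those were CD82, MMP14 and PRKCD at both times and CBX7, PAM, PLCB2 and PRKCA at 24 h. The loss was not confined to these lists. For the WT change by 6 h, 4993 of all features were called with 11 libraries but only 857 with 12. By 24 h these counts were 6151 and 1221. In the 11-library fit MMP14 and PCSK7, a convertase, rose at 6 h, while PCSK5 fell, by 0.46 on the log2 scale. At 24 h MMP14, PCSK7 and PAM, the enzyme that amidates peptide ends, rose, the last by 0.56, and the carboxypeptidases CPE and CPD fell with PCSK5. The calls of PCSK7 at 6 h (adjusted p of up to 0.221 without 1 library, limma) and at 24 h (up to 0.058) and of CPD (up to 0.221) were each lost in at least 1 fit that left out a library. FURIN, the convertase with the highest level, was between 24.1 and 33.6 FPKM in 11 libraries and did not pass. The endocrine convertases PCSK1 and PCSK2 were at or near 0.

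Among 17 genes of the signalling below the receptor, 16 were tested, and 3 were lower in ΔCRE cells at 6 h (PLCB2, ARRB2 and ARRB1), against 6.22% of all features, whereas 13 did not pass. At 24 h PLCB2 and ARRB2 were lower and PRKCA was higher, where 3.97% of all features were lower and 2.35% higher, and 13 did not pass. PLCB2, a phospholipase C of this pathway, was 2.70 and 3.21 FPKM at 0 h, 2.58 and 2.42 FPKM at 6 h and 9.44 and 9.64 FPKM at 24 h in WT cells. In ΔCRE cells it was 0.974 FPKM at 0 h (replicate 2), 0.851 and 0.634 FPKM at 6 h and 3.13 and 3.51 FPKM at 24 h. It was thus lower in ΔCRE cells in every one of these libraries (difference −1.01 at 6 h, adjusted p = 0.00074, and −1.29 at 24 h, adjusted p = 0.0003, limma). ARRB2, an arrestin that uncouples activated receptors, was 45.8% of WT at 6 h (difference −0.84, adjusted p = 0.0005, limma) and 48.9% at 24 h (−0.88, with an adjusted p of 0.00067). The difference of ARRB2 was already −0.86 at 0 h, before stimulation (1 ΔCRE library). ARRB1, its close relative, was 75.0% of WT at 6 h (difference −0.36, adjusted p = 0.0073, limma), and PRKCA, a protein kinase C, was 122.9% of WT at 24 h (difference 0.28, adjusted p = 0.0358, limma). The ARRB1 call was lost without either WT 6 h library or ΔCRE 6 h replicate 2 (adjusted p of up to 0.0568), and the PRKCA call without any 1 of the 24 h and WT 6 h libraries (up to 0.190).

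With stimulation of WT cells 3 of these 16 genes rose at 6 h (23.3% of all features did), the calcium channel gene ITPR3 (0.78 on the log2 scale), PRKCD (0.98) and PLCB3 (0.35), and 7 fell (21.1% of all features). Those were PRKCE (−1.05), PLCB1 (−0.64), PRKCA (−0.59), ARRB1 (−0.55), ITPR1 (−0.52), ARRB2 (−0.43) and MAPK3 (−0.23). At 24 h, where 26.5% of all features rose and 28.2% fell, 5 rose, led by PLCB2 (1.42), with ITPR3, PRKCD, PLCB3 and ARRB2, and 6 fell, led by PRKCA (−1.56) and PRKCE (−1.001), with PLCB1, ARRB1 and the Gq subunits GNAQ and GNA11. The calls of MAPK3 (adjusted p of up to 0.223 without 1 library, limma), PLCB3 at 6 h (up to 0.0603), GNAQ (up to 0.201) and GNA11 (up to 0.0899) were lost in at least 1 such fit.

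Of 8 factors that have been reported to act on KISS1 transcription, 5 were tested and 1 was lower in ΔCRE cells at 6 h, where 6.22% of all features were lower. TXNIP, also known as a metastasis suppressor gene, was 2.46 and 2.71 FPKM in WT and 1.42 and 0.963 FPKM in ΔCRE cells at 6 h (difference −0.72, adjusted p = 0.0125, limma). Without either WT 6 h library or ΔCRE 6 h replicate 2 that call was lost (adjusted p of up to 0.0867). At 24 h 0 of the 5 passed in limma, and 0 had an unadjusted p under 0.05, with TXNIP at 81.5% of WT. In WT cells 2 of the 5 fell at 6 h, and 3 fell and 1 rose at 24 h, against 21.1%, 28.2% and 26.5% of all features. TXNIP fell at 6 h (−1.44) and less at 24 h (−0.55), and SP1, a factor of GC boxes, fell by 0.21 and 0.32. EED, a Polycomb subunit, fell by 0.45 at 24 h, and CBX7, another Polycomb protein, rose by 0.66. The calls of SP1 at 6 h (up to 0.117), of TXNIP at 24 h (up to 0.062) and of EED (up to 0.077) were lost without 1 library (adjusted p, limma). TFAP2A, the gene of AP-2α, was between 0.240 and 1.47 FPKM in 11 libraries and was not tested.

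KISS1 was not the only metastasis suppressor gene that differed between genotypes. Of 19 other such genes, in 18 features since NME1 and NME2 share 1, 15 were tested, and 4 were lower in ΔCRE cells at 6 h, against 6.22% of all features. This list, like the others, was chosen with earlier results of these data known, so the count is not that of a list drawn blindly. NDRG1, a stress-responsive gene, was 63.4% of WT at 6 h (difference −0.63, adjusted p = 0.0012, limma) and 83.7% at 24 h, where it did not pass. ARHGDIB was 268.5 and 263.9 FPKM in WT and 166.7 and 162.5 FPKM in ΔCRE cells at 6 h (difference −0.69, adjusted p = 0.00031, limma), and was also lower at 24 h (−0.56, with an adjusted p of 0.0014). At 0 h, before stimulation, the difference was already −0.50 for ARHGDIB and −0.43 for NDRG1 (1 ΔCRE library). TXNIP and PEBP1, the Raf kinase inhibitor protein, were the others, PEBP1 with a difference of −0.22 (adjusted p = 0.0425, up to 0.202 without 1 library, limma).

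At 24 h AKAP12, a scaffold of protein kinases A and C, was higher in ΔCRE cells, with 22.0 and 22.3 FPKM against 12.8 and 13.4 FPKM in WT cells (difference 0.71, adjusted p = 0.0003, limma). Of all features 2.35% were higher and 3.97% lower at 24 h. DLC1 was 80.7% of WT (difference −0.27, adjusted p = 0.0354, up to 0.187 without 1 library, limma). The median difference over the 15 tested features was −0.05 at 6 h and −0.02 at 24 h, against 0.01 over all features. At 6 h 3.62% of all features were higher in ΔCRE cells, and of the 44 features tested on these lists 0 were (limma). With 44 features, 0 is near that share. At an unadjusted p under 0.05, 4 of the 44 were higher and 10 lower. The share of all features at that threshold is not reported here, so these counts cannot be set against it.

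In WT cells 4 of the 15 tested metastasis suppressor features rose at 6 h, where 23.3% of all features rose and 21.1% fell, CD82 (1.33), AKAP12 (1.17), NDRG1 (0.87) and MAP2K7 (0.28), and 6 fell, led by MAP2K6 (−1.59), TXNIP (−1.44), LIFR (−0.77) and DLC1 (−0.53), with MAP2K4 and ARHGDIB. At 24 h, where 26.5% of all features rose and 28.2% fell, NDRG1 (2.59), CD82 (0.98) and AKAP12 (0.19) were higher, and MAP2K6 (−1.39), LIFR (−1.03), DLC1 (−0.86), TXNIP and MAP2K4 were lower. NDRG1 went from 14.7 and 13.7 FPKM at 0 h to 92.6 and 88.1 FPKM at 24 h in WT cells, and from 10.3 FPKM (replicate 2) to 77.0 and 74.2 FPKM in ΔCRE cells. NDRG1, like KISS1, was highest at 24 h in both genotypes, but with all 12 libraries its WT calls were lost (adjusted p = 0.842 at 6 h and 0.234 at 24 h, limma). Its differences were the same in that fit (0.87 and 2.59). The calls of MAP2K7 (adjusted p of up to 0.0548, limma), ARHGDIB at 6 h (up to 0.144) and AKAP12 at 24 h (up to 0.109) were lost without 1 library.

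**Figure D5:**
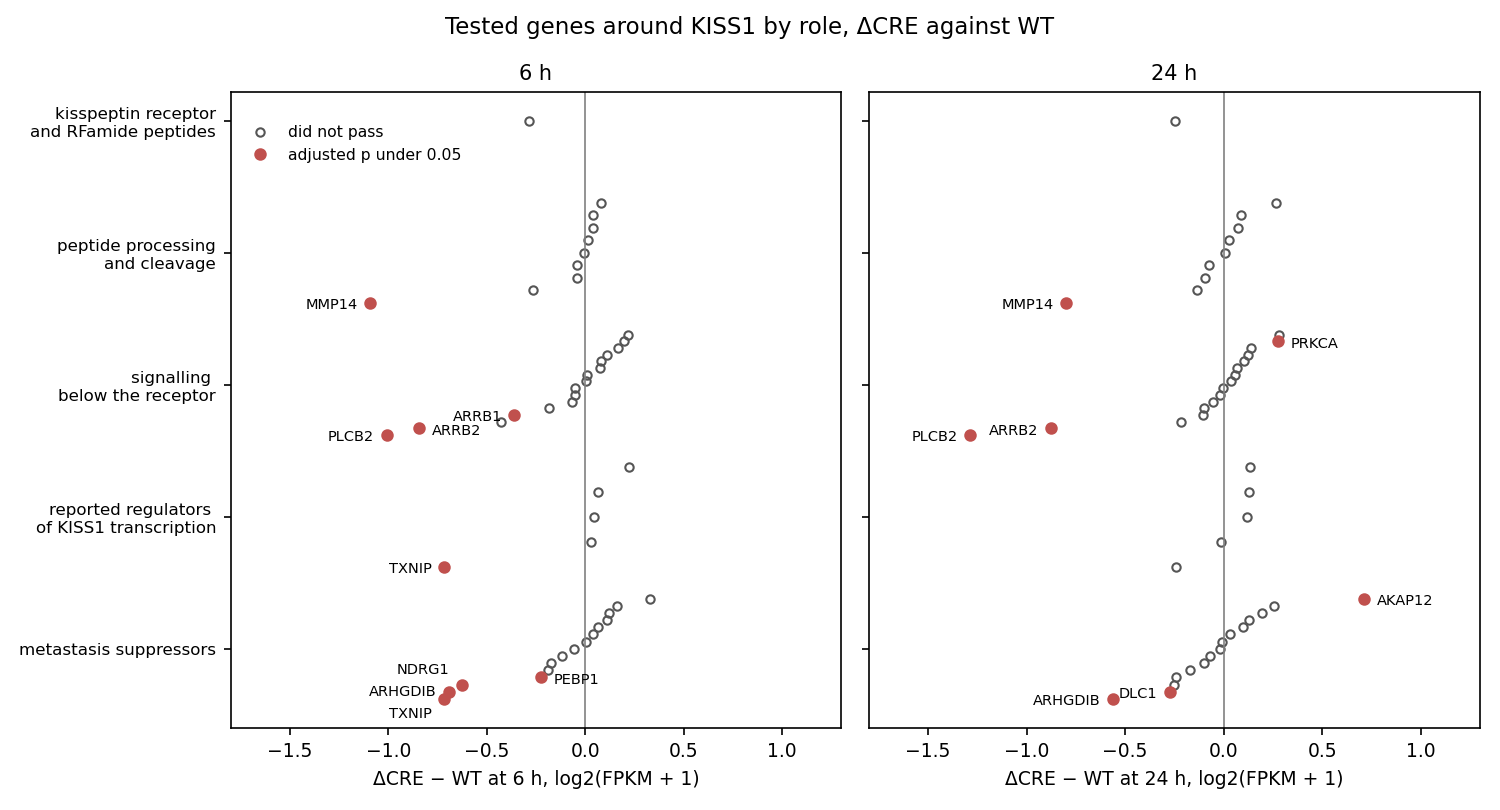
Differences between ΔCRE and WT cells on the log2(FPKM + 1) scale at 6 h (left) and 24 h (right) for the tested genes of each list. Filled points passed an adjusted p under 0.05 (limma, 11 libraries), open points did not, and the height within a list only spreads the points. Most genes lie near 0, with MMP14, PLCB2 and ARRB2 well below it at both times and AKAP12 above it at 24 h.

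These calls rest on the 11-library fit. Of the 8 calls for ΔCRE against WT cells at 6 h on these lists (KISS1, ETS1 and HPRT1 aside) 0 passed, and of the 7 at 24 h 1 passed (PLCB2), when ΔCRE 0 h replicate 1 was included (limma). At an unadjusted p under 0.05 these were 3 and 3. Most calls outside the lists were lost as well. Between genotypes at 6 h, 1107 of all features were called with 11 libraries and 20 with 12. The 24 h counts were 712 and 17.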

How the data were processed

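RNA-sequencing was performed on 12 stranded mRNA libraries of WT and ΔCRE MDA-MB-231 cells. Mapping to hg19 (TopHat) and the estimation of expression (Cufflinks) were done by the authors, who deposited FPKM values of 24331 features in 1 table. Of its columns, 2 have a misspelt name and were matched to the only title left. Deposited values were log-transformed as log2(FPKM + 1). Features averaging at least 1 FPKM over 11 libraries (11256) were fitted with limma 3.58.1 in R 4.3.3 (lmFit, eBayes with trend, 6 groups), without ΔCRE 0 h replicate 1, whose gut epithelium markers and total FPKM stand apart. Benjamini-Hochberg adjustment ran over all features tested, and a call is an adjusted p under 0.05. Because of the added 1, differences of genes with low FPKM come out too small. The script was tested on simulated data. KISS1 and the gene lists were chosen with earlier results of these data known. Named genes were KISS1 in every library, every called list member, KISS1R, GOLT1A, the features within 500 kb, and the 6 features most like and the 3 most opposite to KISS1. The alternatives changed the pseudocount (0.1), the filter (none, or a mean of at least 5 FPKM), the scaling (quantile, TPM, ratio to HPRT1), the libraries (all 12, or each left out in turn) and the model (no trend, or a replicate block). FPKM keeps no fragment counts, so depth was only approximated. The annotation behind the features is not given in the sources used here. Reads and Cuffdiff output were not used here. The values of 1 feature within 500 kb are not reported here.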

Additional observations from a re-analysis of the deposited data

Results flagged for a closer look

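The library labelled ΔCRE 0 h replicate 1, which enters no mean of KISS1, held several genes that no other library showed at 0.5 FPKM or more. CDX2, a transcription factor of the gut, was 55.31 FPKM there, VIL1 (villin) 32.31 FPKM, the gut cadherin CDH17 125.7 FPKM, the galectin LGALS4 595.8 FPKM and PHGR1 1478 FPKM. CDH1, the gene of E-cadherin and a metastasis suppressor on the list, was 52.26 FPKM, and GOLT1A, the gene next to KISS1, was 35.72 FPKM. KISS1 itself was 2.68 FPKM in this library, between ΔCRE 0 h replicate 2 and the WT 0 h libraries.

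ETS1 rose less from 0 to 6 h in ΔCRE than in WT cells, by a difference of −0.667 on the log2 scale (adjusted p = 0.0291, limma interaction term, with 1 ΔCRE library at 0 h). The same difference for KISS1 was −0.59 and did not pass (adjusted p = 0.356, limma).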

How the results depend on the processing

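KISS1 kept its direction in every alternative run. The rise from 0 to 6 h in WT and in ΔCRE cells and the lower 6 h level in ΔCRE cells passed in each alternative with a test, also with all 12 libraries. Relative to HPRT1, with no test, the differences moved to 2.26 (WT, 6 h against 0 h), 1.60 (ΔCRE, 6 h against 0 h), −0.86, −1.52 and −2.33 (ΔCRE against WT at 0, 6 and 24 h), 4.28 (WT, 24 h against 0 h) and 2.82 (ΔCRE, 24 h against 0 h). The 0 h difference lost its call with no filter (−0.69, adjusted p = 0.0738, limma), with all 12 libraries (−0.46, adjusted p = 0.272) and without any 1 of the WT libraries or the ΔCRE 6 h libraries (adjusted p between 0.0509 and 0.137), and lay between −0.72 and −0.67 over the fits that left out 1 library. Leaving out 1 library set the 24 h difference between genotypes from −2.27 to −1.97 and the ΔCRE difference of 24 h against 0 h from 1.83 to 2.13. A pseudocount of 0.1 gave 3.72 (WT) and 2.44 (ΔCRE) for 24 h against 0 h, TPM gave 3.54 and 2.13, and all 12 libraries gave 1.75 for ΔCRE cells. The difference between ΔCRE and WT cells in the rise from 0 to 6 h shrank from −0.59 to −0.48 with a pseudocount of 0.1, so its size depends on the added value.

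With all 12 libraries the calls fell from 4993 to 857 (WT, 6 h against 0 h), from 6151 to 1221 (WT, 24 h against 0 h), from 1107 to 20 (ΔCRE against WT, 6 h) and from 712 to 17 (24 h); the cause was not tested. Without 1 library the 6 h count ranged from 321 to 1097 and the 24 h count from 165 to 717, with the fewest without WT 6 h replicate 1 and WT 24 h replicate 1. With a replicate block they were 1805 and 1407, and no call of KISS1 changed. Same-numbered WT and ΔCRE libraries deviated together with a correlation across genes of 0.0999 at 6 h and 0.107 at 24 h, and with under 3 usable pairs the numbers were not taken as pairs. At 0 h about 22.7 fragments in 1 ΔCRE library limit what can be said of the genotype difference.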
